A study of Homo sapiens with 6 samples.

Results

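Regions of open chromatin that separated a pair of TLX3-rearranged leukaemia lines from a pair of TAL1-expressing lines were collected from ATAC-seq peak lists. DND-41 and HBP-ALL made up the TLX3 side, and CCRF-CEM and MOLT-4 the TAL1 side. Overlapping intervals of the 4 lists on chromosomes 1 to 22 and X were merged into 37017 regions. A region was taken as a member of a side when both lines of that side had a peak there and neither line of the other side had one. Of the 37017 regions, 719 (1.94%) were TLX3-side regions and 883 (2.39%) were TAL1-side regions, so that the members made up 1602 regions (4.33%) in all. The members were thus chosen by the presence and absence of called peaks in the 4 lines, and their number and their values in those lines are given as a description.

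T-cell acute lymphoblastic leukaemia (T-ALL) is a cancer of immature T cells. It is commonly divided by the transcription factor that is switched on abnormally, often because a chromosome rearrangement has moved its gene next to a strong enhancer. TLX3 is a homeobox factor that is silent in normal T-cell development, and its rearranged form is associated with an early cortical arrest. TAL1 is a basic helix-loop-helix factor of blood stem cells and the red cell lineage that binds E-box motifs together with LMO and GATA partners, and it is associated with a later arrest.

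All 6 libraries of the series were from established T-ALL cell lines grown in the same culture medium, with no treatment or control named. The remaining lines, KOPT-K1 and TALL-1, took no part in choosing the members and were examined afterwards. Each line is a single leukaemia kept in culture and was represented by 1 library, so no line has a replicate error. The sides were not tested against each other at the members, because the same peaks chose them, and KOPT-K1 and TALL-1 are single libraries. The labels give the names of the lines but not their drivers; the assignment to TLX3 or TAL1 rests on general knowledge of these lines. A difference between the sides cannot be told apart from other differences between 2 pairs of lines, or between preparations. No annotation of the files' genome build, hg19, was used, so the regions are given by position without the genes they lie in, and the driver genes and T-cell markers could not be examined as a check of the labels.

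The lists held 17898 intervals in DND-41, 22055 in HBP-ALL, 22367 in CCRF-CEM and 19114 in MOLT-4. The read totals are not known here. A relative tag depth was derived by dividing each list's lowest background by its smallest interval width, taken to be the caller's extension length, with CCRF-CEM set to 1. It was 1.35 in MOLT-4, 1.55 in KOPT-K1, 1.70 in DND-41, 1.93 in HBP-ALL and 2.096 in TALL-1. Both libraries of the TLX3 side were thus deeper than both of the TAL1 side, so that depth and side cannot be told apart in the results below.

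Among regions with a peak in exactly 2 of the 4 lines, sharing within a side was not more frequent than sharing across the sides. Of the 37017 regions, 17334 (46.8%) had a peak in 1 of the 4 lines, 5582 (15.1%) in 2, 3973 (10.7%) in 3 and 10128 (27.4%) in all 4. Among the 5582 regions of exactly 2 lines, the 719 TLX3-side regions made up 12.9% and the 883 TAL1-side regions 15.8%. The other 3980 (71.3%) joined 1 line of each side. Pairs across the sides number 4, against 2 within a side, so equal sharing by all pairs would also place most regions there. These counts leave out regions of 3 lines, the largest set of which, 1639, joined both TLX3-side lines with MOLT-4. The others were 703 for both TLX3-side lines with CCRF-CEM, 862 for both TAL1-side lines with HBP-ALL and 769 with DND-41.

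**Figure D1:**
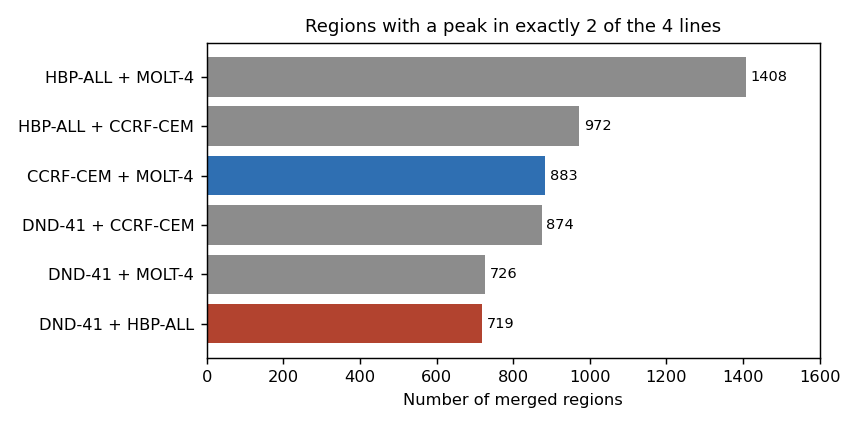
Number of merged regions (horizontal axis) with a peak in exactly 2 of the 4 lines, 1 bar for each of the 6 possible pairs of lines, the TLX3 side in red, the TAL1 side in blue and pairs across the sides in grey. The bar of DND-41 and HBP-ALL is the shortest, at 719 regions, and that of HBP-ALL and MOLT-4 the longest, at 1408.

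HBP-ALL shared 1408 such regions with MOLT-4 and 972 with CCRF-CEM, both more than the 719 it shared with DND-41. DND-41 in turn shared 874 with CCRF-CEM and 726 with MOLT-4. The TLX3 pair had the fewest such regions of the 6 pairs, and the TAL1 pair had the third most. This order depended on the threshold. When every list was restricted to peaks with a −log10 p of at least 10, the fewest regions were those of DND-41 with MOLT-4, 434, followed by the TAL1 side with 490 and the TLX3 side with 537. With the 16507 strongest intervals of each list, HBP-ALL with CCRF-CEM had the fewest, 486, against 550 on the TLX3 side and 592 on the TAL1 side. HBP-ALL with MOLT-4 had the most regions in all 3 versions, at 903 and 994 in the restricted lists.

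The member regions were mostly weak peaks of their lists. Peak height is given as the pileup, the number of tags over the summit, recovered from the fold enrichment and the p-value in the authors' lists. Pileups are raw tags, not scaled by depth, so tag numbers of different lines do not rank the lines. The 719 TLX3-side regions had a median pileup of 16 in DND-41 (range 8 to 67) and also 16 in HBP-ALL (range 8 to 66). The medians of the whole lists were 26 and 24, and at regions with a peak in all 4 lines they were 38 and 37. In DND-41 87.1% of these regions lay below the list's median −log10 p, and in HBP-ALL 79.3%. Only 1 of them in DND-41 and 6 in HBP-ALL were among the top 10% of their list.

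The TAL1-side regions were unequal between their lines. In CCRF-CEM their median pileup was 18 (range 6 to 227) against 20 over its whole list, and 55.0% lay below the list's median −log10 p. In MOLT-4 the median was 14 (range 7 to 111) against 23, and 78.6% lay below. Of the 883 regions, 43 were among the top 10% in CCRF-CEM and 16 in MOLT-4. A TAL1-side region thus stood near the middle of the CCRF-CEM list, with a median percentile of 45.0, and low in the MOLT-4 list, at 26.7. The corresponding percentiles of TLX3-side regions were 22.3 in DND-41 and 27.2 in HBP-ALL. The authors' fold enrichment had medians of 5.56 in DND-41, 5.60 in HBP-ALL, 7.61 in CCRF-CEM and 5.72 in MOLT-4 at the members. CCRF-CEM also had the highest median fold over its whole list, 7.93.

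**Figure D2:**
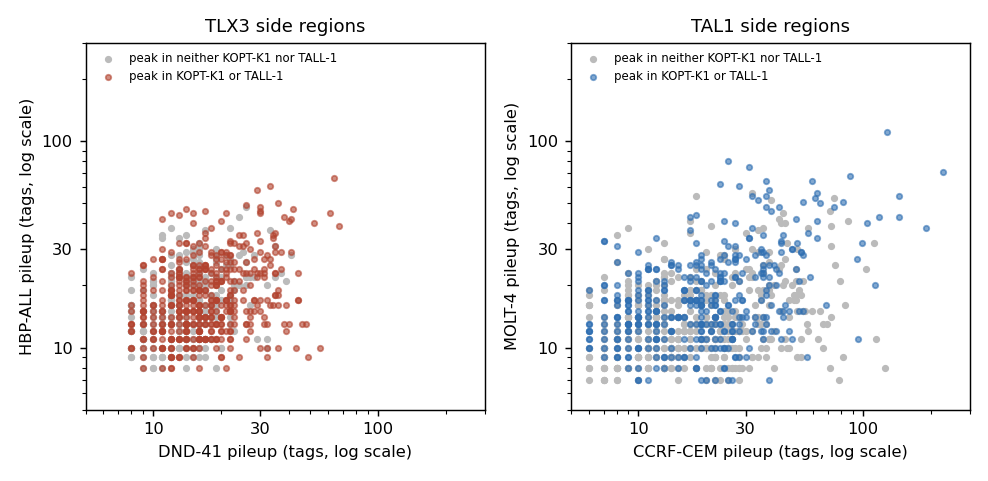
Summit pileup in tags, on log axes, of every TLX3-side region in DND-41 and HBP-ALL (left) and of every TAL1-side region in CCRF-CEM and MOLT-4 (right); 1 point is 1 region, coloured where KOPT-K1 or TALL-1 also has a peak. TLX3-side points end at 67 tags in DND-41 and 66 in HBP-ALL, while TAL1-side points reach 227 in CCRF-CEM and 111 in MOLT-4.

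Heights in the lines of a side were loosely related. Across TLX3-side regions the pileups of DND-41 and HBP-ALL had a Spearman correlation of 0.32 over 719 regions, and across TAL1-side regions those of CCRF-CEM and MOLT-4 had one of 0.32 over 883. Regions are not replicates, and all points of a correlation share the same 2 libraries. Only 41 TLX3-side regions (5.70%) were above the list median in both lines, against 131 TAL1-side regions (14.8%). Members rested on a threshold for many of their peaks. In 128 TLX3-side regions (17.8%) and 150 TAL1-side regions (17.0%) the weaker line's peak had a −log10 p under 6, where the lists begin just above 5. The weakest peaks inside had −log10 p values of 5.01 on the TLX3 side and 5.001 on the TAL1 side. Just outside were 2342 regions with a peak in both TLX3-side lines and in 1 TAL1-side line, and in 107 of them that line's peak was under 6. For the TAL1 side the numbers were 1631 and 74.

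The strongest members are named by the lower of their percentiles in the lines of the side. The first of the TLX3 side was chr2:92290823-92291169, with a pileup of 64 in DND-41 and 66 in HBP-ALL. KOPT-K1 had 45 tags there and TALL-1 129, so that both later lines held the region as well. This region lay 34135 bp from the longest stretch of chromosome 2 without any merged region, and how well reads map there was not examined. Next came chr18:42259014-42259766, where DND-41 had 61 tags, HBP-ALL 45, KOPT-K1 12 and TALL-1 28. The third, chr6:74405554-74406389, had pileups of 42 tags (DND-41), 46 (TALL-1) and 47 (HBP-ALL), and KOPT-K1 had no peak there.

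Among the other strong TLX3-side regions, chr18:58039662-58040341 had 61 tags in HBP-ALL and 33 in DND-41, and was held by KOPT-K1 with 34 and TALL-1 with 17. The widest of the strongest 10 was chr7:114562248-114563535, where DND-41 had 52 tags, HBP-ALL 40 and KOPT-K1 35, and TALL-1 had no peak. Its nearest peak in a TAL1-side line was 259878 bp away. Of the 10 strongest TLX3-side regions, KOPT-K1 held 8 and TALL-1 held 9. The strongest that neither held was chr6:116783075-116783658, with 33 tags in DND-41 and 37 in HBP-ALL, followed by chr3:154797380-154798177, with 35 and 31, and chr12:68294024-68294541, with 22 and 38.

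The strongest TAL1-side regions stood higher within their lists, the lowest percentile among the first 10 being 89.62 against 65.04 on the TLX3 side. At chr8:109799457-109800216 the pileup was 227 in CCRF-CEM, 71 in MOLT-4 and 114 in KOPT-K1, and TALL-1 had no peak. The region chr7:94287131-94287938 had 127 tags in CCRF-CEM, 111 in MOLT-4, the highest of that line at a member, and 37 in KOPT-K1. At chr13:92050611-92051139 CCRF-CEM had 64 tags, MOLT-4 50 and KOPT-K1 46. None of these 3 had a peak in TALL-1.

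Of the 10 strongest TAL1-side regions, KOPT-K1 held 8, as on the TLX3 side, but TALL-1 held 2. The first of those 2 was chr21:18884921-18885732, with 186 tags in TALL-1, 61 in CCRF-CEM, 53 in MOLT-4 and 25 in KOPT-K1. The other was chr7:12250300-12251351, with 145 tags in CCRF-CEM, 43 in MOLT-4, 105 in KOPT-K1 and 80 in TALL-1. Regions held by neither line included chr7:145812888-145813555, with 74 tags in CCRF-CEM and 53 in MOLT-4, and chr12:82819886-82820436, with 71 and 46.

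**Figure D3:**
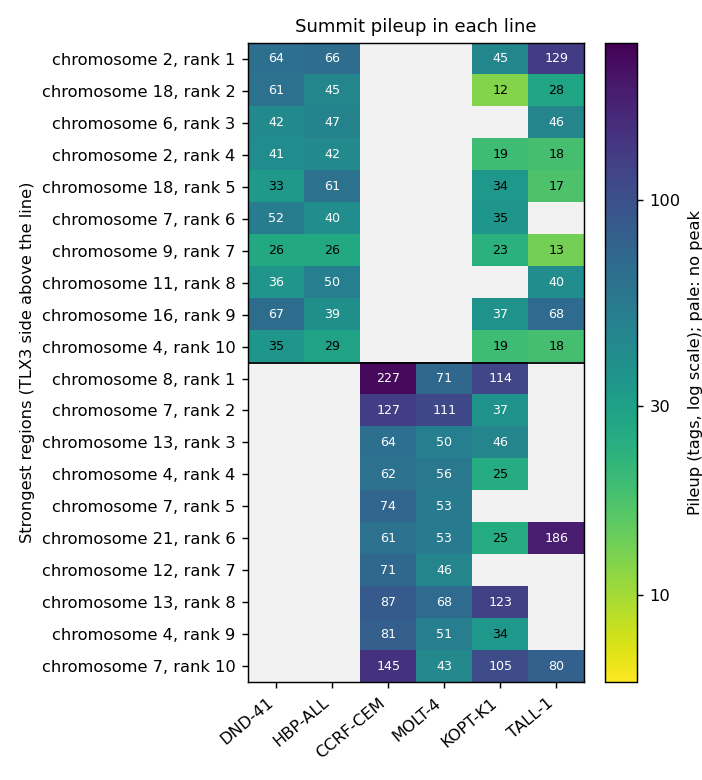
Summit pileup in tags (colour on a log scale, number in each cell) of the 10 strongest TLX3-side regions, above the line, and the 10 strongest TAL1-side regions, below it, in the 6 lines; pale cells have no peak, and rank is by the lower percentile within the side. KOPT-K1 holds 8 of 10 on each side, and TALL-1 holds 9 of the TLX3-side and 2 of the TAL1-side regions.

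KOPT-K1 and TALL-1 both held a larger share of the TLX3-side regions. KOPT-K1 had a peak in 312 of 719 TLX3-side regions, or 43.4% (95% exact binomial interval 39.7% to 47.1%), and in 301 of 883 TAL1-side regions, or 34.1% (31.0% to 37.3%). The difference was 9.31 percentage points. TALL-1 had a peak in 299 TLX3-side regions, or 41.6% (38.0% to 45.3%), and in 183 TAL1-side regions, or 20.7% (18.1% to 23.6%), a difference of 20.9 points. These intervals cover counting error only and not the spread between libraries. Over all 37017 regions the shares were 44.1% for KOPT-K1 and 39.8% for TALL-1, but these mix regions of every number of lines. Over the 5582 regions of exactly 2 lines, which include the members, they were 36.8% and 28.1%. Both TLX3-side shares lay above those values. On the TAL1 side the KOPT-K1 interval covered 36.8%, while the TALL-1 share lay below 28.1%.

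Regions shared across the sides spanned a wider range than the members. KOPT-K1 held 53.4% of the regions of DND-41 with MOLT-4 and 20.8% of those of HBP-ALL with CCRF-CEM, and TALL-1 held 41.0% and 17.0%. In both lines the regions of DND-41 with MOLT-4 and of HBP-ALL with CCRF-CEM gave the highest and the lowest shares among pairs across the sides. Pooled over the 4 pairs across the sides, the shares were 36.2% for KOPT-K1 and 27.3% for TALL-1. The 2 pairs across the sides that include CCRF-CEM had lower shares in both lines than the 2 that include MOLT-4. Pairs with HBP-ALL were likewise lower than pairs with DND-41 and the same partner. For KOPT-K1 the shares were 38.5% against 53.4% with MOLT-4, and 20.8% against 35.5% with CCRF-CEM. For TALL-1 they were 29.8% against 41.0%, and 17.0% against 23.5%. The TAL1 side includes CCRF-CEM and the TLX3 side includes HBP-ALL. The part of these libraries in the difference between the sides cannot be told apart from the part of the side.

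**Figure D4:**
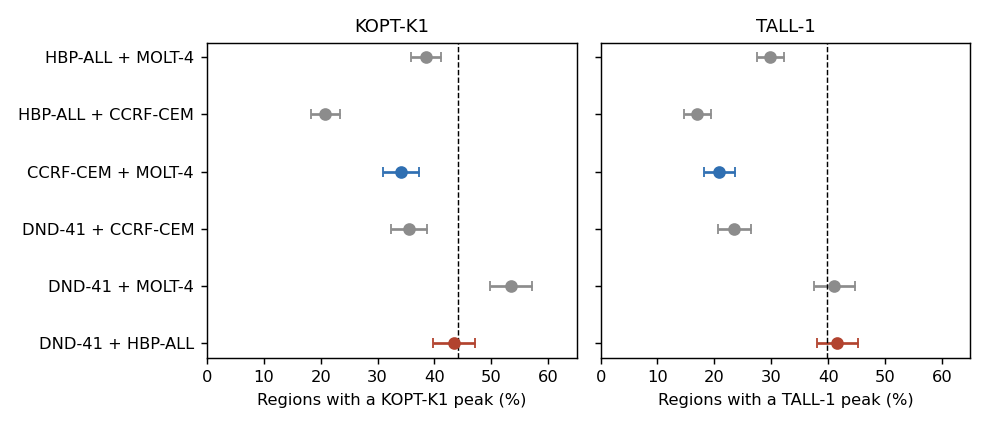
Share of regions in percent with a KOPT-K1 peak (left) or a TALL-1 peak (right) for each pair of lines that alone held the region among the 4; bars are 95% exact binomial intervals, and the dashed line is the share over all 37017 regions. The TLX3 side (red) lies near the dashed lines of 44.1% and 39.8%, and the TAL1 side (blue) lies below both, at 34.1% and 20.7%. The dashed lines mix regions of every number of lines, and over regions of exactly 2 lines the shares were 36.8% and 28.1%.

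When 1 line was left out, the larger shares were always those of the side that kept both lines. With HBP-ALL alone standing for its side, membership grew to 6214 TLX3-side and 1656 TAL1-side regions, and the difference became -37.1 points for KOPT-K1 and -22.7 for TALL-1. With DND-41 alone, it was -15.2 and -5.39 points. Without CCRF-CEM the differences were 26.5 and 29.1 points, and without MOLT-4 they were 57.3 and 58.3. In each of these versions the side with 1 line was made up of regions that only 1 line needed to hold, and those regions were held less often by the later lines. The sign of the difference in these versions therefore cannot show which side the later lines share more.

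Both later lines together held 150 TLX3-side regions (20.9%) and 86 TAL1-side regions (9.74%). KOPT-K1 alone held 162 (22.5%) and 215 (24.3%), and TALL-1 alone 149 (20.7%) and 97 (11.0%). Neither held 258 TLX3-side regions (35.9%), against 485 TAL1-side regions (54.9%). KOPT-K1 without TALL-1 was thus the more frequent single holder on the TAL1 side, while on the TLX3 side the single holders were about equal in number.

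The shares moved with peak strength in 3 of the 4 combinations of side and line. Members of each side were divided into terciles by the lower percentile of their lines. The terciles were cut within each side and are not of equal strength. The strongest began at a percentile of 22.3 on the TLX3 side and 30.5 on the TAL1 side. KOPT-K1 held 32.5%, 43.5% and 54.2% of the weakest, middle and strongest TLX3-side regions, and 21.8%, 31.0% and 49.5% of the TAL1-side regions. TALL-1 held 37.1%, 36.8% and 50.8% of the TLX3-side regions. Of the TAL1-side regions it held 23.5%, 19.7% and 19.0%, with no higher share among the strong ones. In the strongest tercile of each side KOPT-K1 had overlapping intervals of 47.6% to 60.6% and 43.6% to 55.3%. TALL-1 had intervals of 44.3% to 57.3% and 14.7% to 23.9%. The sides were not compared at equal strength.

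The shares of the sides were unequal on several chromosomes, beside overall shares of 1.94% TLX3-side and 2.39% TAL1-side. On chromosome 19, 38 of 1134 merged regions (3.35%, interval 2.38% to 4.57%) were TLX3-side and 10 (0.88%, 0.42% to 1.62%) TAL1-side. On chromosome 18 the numbers were 21 and 9 of 796 regions, or 2.64% and 1.13%. TAL1-side regions were the more frequent on chromosome 2, with 52 TLX3-side and 103 TAL1-side regions of 3351 (1.55% and 3.07%). They were also the more frequent on chromosome 4, with 1.59% (1.11% to 2.19%) TLX3-side and 2.91% (2.26% to 3.69%) TAL1-side. On chromosome 8 the shares were 1.52% (1.01% to 2.18%) and 3.09% (2.35% to 3.98%). On chromosomes 4 and 8 the interval of each side covered its overall share. CCRF-CEM had 2.52% of all its intervals on chromosome 19, against 4.27% to 4.76% in the other 3 lines, and MOLT-4 had 1.24% on chromosome 18, against 1.88% to 2.20%. A region of the TAL1 side needs a peak in both of those libraries, and their part in the chromosome shares was not tested.

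**Figure D5:**
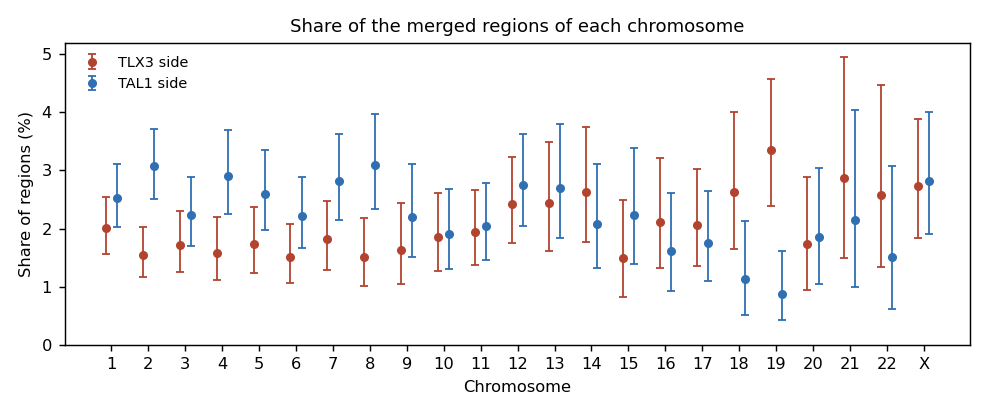
Share in percent of the merged regions of each chromosome that were TLX3-side (red) or TAL1-side (blue), with 95% exact binomial intervals that cover counting error only. The intervals of the sides do not overlap on chromosomes 2, 4, 8 and 19, with TLX3-side regions the more frequent on chromosome 19 and TAL1-side regions on the other 3. Over all chromosomes the shares were 1.94% and 2.39%, and on chromosomes 4 and 8 the interval of each side covers its overall share.

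Surroundings were denser for pairs of lines without CCRF-CEM than for pairs with it. The median number of regions shared by all 4 lines within 500 kb on each side was 5 for TLX3-side regions and 3 for TAL1-side regions, with 4 over all regions, 7 for regions of all 4 lines and 3 for regions of 1 line. Among pairs across the sides it was also 5 for both pairs with MOLT-4, and 3 for DND-41 with CCRF-CEM and 4 for HBP-ALL with CCRF-CEM. The higher median was therefore not particular to the TLX3 side. The nearest peak of a line of the other side was at a median distance of 18629 bp from a TLX3-side region and 41638 bp from a TAL1-side region. In 43 TLX3-side and 28 TAL1-side regions it lay within 1 kb, where the opposite side had a separate peak close by. Neither these distances nor these counts are set beside those of other regions here. Median widths were 443 bp on the TLX3 side and 476 bp on the TAL1 side.

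Most members stood alone. With at most 50 kb between neighbours and no member of the other side between, 55 TLX3-side regions (7.65%) fell into 27 groups and 76 TAL1-side regions (8.61%) into 35. Groups were not counted for other pairs of lines or over all regions, so these shares do not show a trait of the members. No group held more than 3 regions, and there were 1 group of 3 on the TLX3 side and 6 on the TAL1 side. The TLX3-side group of 3 was the one at chr2:92290823-92313142, which includes the strongest TLX3-side region. TALL-1 had a peak in all 3 of its regions and KOPT-K1 in 2.

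That group lay 12162 to 34135 bp from the longest stretch of chromosome 2 without any merged region. Another of the 10 strongest TLX3-side regions, chr16:46406769-46407040, lay 20677 bp from the longest such stretch of its chromosome, and its pileups were 67 tags for DND-41, 39 for HBP-ALL, 37 for KOPT-K1 and 68 for TALL-1. In all, 6 TLX3-side regions and 0 TAL1-side regions lay within 100 kb of the longest region-free stretch of their chromosome. Within 5 Mb the numbers were 51 and 42. The same counts over all merged regions are not given here, so these numbers do not show a trait of either side. How well reads map beside these stretches was not examined.

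Of the 6 TAL1-side groups of 3, those at chr4:99529602-99580120 and chr1:61515667-61543909 were held whole by both KOPT-K1 and TALL-1. The first was highest at its last region, chr4:99579385-99580120, with 50 tags in CCRF-CEM, 42 in MOLT-4, 42 in KOPT-K1 and 51 in TALL-1. In the second, chr1:61543497-61543909 had 38 tags in CCRF-CEM, 58 in MOLT-4, 72 in KOPT-K1 and 33 in TALL-1. These regions had peaks in 4 of the 6 lines, and the lack of a peak in the 2 TLX3-side lines was set by the choice of members.

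The group at chr5:87956464-87987057 was the least shared, with a KOPT-K1 peak in 1 of its regions and a TALL-1 peak in 0. Its region chr5:87956464-87957381 was uneven, with 81 tags in CCRF-CEM and 9 in MOLT-4, although MOLT-4 was the deeper library. The group at chr13:78353757-78395088 was alike in this, with 95 tags in CCRF-CEM and 11 in MOLT-4 at its first region. At chr6:16129048-16129911, the first region of a group of 3, both later lines had a peak, with 67 tags in KOPT-K1 and 70 in TALL-1, beside 43 in CCRF-CEM and 29 in MOLT-4. The remaining group, chr16:5121767-5167761, was led by chr16:5147517-5148725, with 37 tags in CCRF-CEM, 54 in MOLT-4, 45 in KOPT-K1 and 63 in TALL-1.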

How the data were processed

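ATAC-seq peak lists of 6 cell lines, 1 library each, were used as deposited. Per the submitters' processing notes, MACS2 2.1.1.2016030, Bowtie2, SAMtools and Picard were used, with build hg19; settings, and whether reads were shifted for Tn5, are not stated in these notes. Per the values in the files, each deposited line gives a score, a fold enrichment (a ratio), a −log10 p and a −log10 q by the authors for each summit; the strongest summit of an interval was kept. Intervals overlapping by at least 1 bp were merged. A whole-number pileup that gives back the fold and the p-value (within 0.001 of its −log10) was found for 99.95% to 99.99% of intervals per library. Merging was tested on simulated, widely spaced intervals of equal width, which does not cover crowded peaks. Recovery was tested on simulated pileups. Shares have exact (Clopper-Pearson) 95% intervals. Named regions are the 10 strongest of each side, the largest groups within 50 kb, and the strongest held by both or neither later line. The members and lists were chosen with earlier results of these data known. The planned gene loci, cell type markers and motifs were not run, since no hg19 annotation or genome was used here. Computation used scipy 1.17.1, pandas 2.3.3 and numpy 2.4.6 in Python 3.11.15, and matplotlib 3.10.9 for the plots.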

Additional observations from a re-analysis of the deposited data

How the results depend on the processing

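Of 10 alternatives, the TAL1 side had more regions than the TLX3 side in 7, and both KOPT-K1 and TALL-1 held the larger share of TLX3-side regions in 8. These tallies include the versions that left out 1 line. Their order followed which side kept both lines, so the tallies do not measure stability. Among the other alternatives the TLX3 side had more regions only with a −log10 p of 10 required in all lists. In each of those others both later lines held the larger share of TLX3-side regions. Requiring a −log10 p of 10 in all lists gave 490 TAL1-side regions and a KOPT-K1 share of 49.2% of TLX3-side regions. Requiring it only of the lines that hold the peak gave 199 TLX3-side and 322 TAL1-side regions, KOPT-K1 shares of 52.3% and 49.4%, and a TALL-1 share of 49.7% on the TLX3 side; the KOPT-K1 difference was then 2.88 points. Equal numbers of the strongest intervals gave KOPT-K1 shares of 53.1% and 37.5% and a TALL-1 share of 50.2% on the TLX3 side. For these moves the cause was not tested. Leaving out 1 line at a time gave 1424 to 6214 TLX3-side and 1656 to 7937 TAL1-side regions, KOPT-K1 shares of 12.9% to 66.1% and 8.78% to 50%, and TALL-1 shares of 12.7% to 64.4% and 6.15% to 35.4%; a side then rests on 1 line by construction. An overlap of 100 bp, joining gaps of 500 bp, and merging over 6 lists left every count and share close to its reported value. No paired analysis was possible because each line had 1 library and no result comes from a test. Depth limits absence: a missing peak is a peak not called at this depth, not closed chromatin.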
